A study of Homo sapiens with 6 samples.

Results

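A set of 10 NRF2 pathway genes was followed in MDA-MB-231 cells, an established line from a human breast cancer without hormone receptors or HER2 amplification, after exposure to the compound YW3-56. They are NFE2L2, KEAP1, BACH1, MAFF and MAFG, which encode regulators, HMOX1, NQO1, SRXN1 and OSGIN1, which are target genes, and the transcribed pseudogene NMRAL2P. They are 10 of 18417 genes with a value. Each was taken from the probe sets annotated to its symbol alone, using the brightest by mean over the arrays. MAFG had 3 such probe sets and each of the others had 1. NMRAL2P was chosen by its large rise between the YW3-56 and DMSO arrays, so its values are given as a description with no test. The other 9 names came from the pathway, with earlier results of these data known.

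Affymetrix arrays were hybridised with RNA from 6 cultures, 3 that received 10 µM YW3-56 for 8 h and 3 that received the vehicle DMSO. YW3-56 is known as an inhibitor of peptidylarginine deiminases, enzymes that turn arginine in proteins into citrulline. Both groups are the same cell line, grown in serum-containing medium and treated at about the same confluence. The labels call the replicates biological, and give no separate time for the vehicle. Values are RMA expression on the log2 scale, on which a difference of 1 is a 2-fold change. In bulk cultures, less transcript per cell and fewer cells holding it cannot be told apart.

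The markers of the line were read from the same table. VIM, CD44, CAV1 and EGFR, which mark its mesenchymal and basal character, lay above the 92.5 percentile of all genes by mean over the arrays. ESR1, PGR and CDH1, genes of luminal and epithelial cells, lay below the 22.4 percentile, and the leukocyte gene PTPRC lay at the 3.33 percentile. ERBB2 at the 65.5, GATA3 at the 35.2 and the fibroblast gene COL1A1 at the 62.3 percentile were not among the dimmest. PECAM1 of endothelium and ALB of liver lay at the 13.8 and 5.61 percentiles. Such ranks compare different probe sets and are rough. Of these markers, CAV1 (-0.43) and GATA3 (-0.37) were lower in YW3-56 (limma adjusted p = 0.0085 and 0.022), and their part in the results below was not tested.

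NRF2, encoded by NFE2L2, is a transcription factor of the CNC family. KEAP1 holds it for ubiquitination by a CUL3 ligase, and oxidants and electrophiles that modify KEAP1 let NRF2 accumulate. NRF2 then pairs with a small MAF protein such as MAFF or MAFG and binds the antioxidant response element (ARE). BACH1 pairs with the same small MAF proteins and represses many of the same genes, HMOX1 among them, until haem binds it. Much of this control acts on proteins, which these arrays do not measure.

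Promoter windows were taken from RefSeq (GRCh38.p14), as the 250 bases before each annotated start. The table held 13 windows for 8 of the genes, all except HMOX1 and NMRAL2P. Both strands were searched for the ARE core TGACNNNGC, for the AP-1 motif TGACTCA and for the cAMP response element TGACGTCA. AP-1 motifs followed by GC also match the ARE core, and none of the matches in these genes did so. The 3 windows below are shown because they hold a match and belong to genes that were higher in YW3-56. Letters run 5′ to 3′ in the direction of the gene, and capitals mark the matches.
MAFF, chr22:38201744-38201993, plus strand: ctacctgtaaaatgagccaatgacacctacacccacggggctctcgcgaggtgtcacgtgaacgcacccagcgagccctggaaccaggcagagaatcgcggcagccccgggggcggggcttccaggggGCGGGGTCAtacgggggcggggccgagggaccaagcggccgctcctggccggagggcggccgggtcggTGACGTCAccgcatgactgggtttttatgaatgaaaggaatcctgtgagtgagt
OSGIN1, chr16:83952990-83953239, plus strand: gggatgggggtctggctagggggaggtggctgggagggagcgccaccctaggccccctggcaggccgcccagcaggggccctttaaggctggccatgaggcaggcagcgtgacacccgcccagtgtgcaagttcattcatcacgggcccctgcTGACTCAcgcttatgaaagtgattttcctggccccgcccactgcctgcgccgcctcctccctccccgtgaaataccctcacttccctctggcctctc
BACH1, chr21:29298672-29298921, plus strand: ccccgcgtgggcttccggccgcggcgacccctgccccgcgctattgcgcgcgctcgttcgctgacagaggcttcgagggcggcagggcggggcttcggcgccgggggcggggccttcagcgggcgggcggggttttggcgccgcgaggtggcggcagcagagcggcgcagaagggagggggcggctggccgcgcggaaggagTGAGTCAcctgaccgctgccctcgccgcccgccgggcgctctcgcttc

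In MAFF the first run of capitals, GCGGGGTCA, is the ARE core read on the opposite strand (TGACCCCGC), beginning 122 bases before the start. The second is a cAMP response element, beginning 54 bases before it. OSGIN1 held an AP-1 motif 97 bases before its start, and BACH1 held the same motif on the opposite strand 48 bases before the first of its annotated starts. KEAP1 held the ARE core at 2 places before one of its starts, TGACACGGC at 54 bases and GCTTAGTCA, on the opposite strand, at 31 bases. The other 9 windows, which include those of NFE2L2, MAFG, NQO1 and SRXN1, held none of the 3 motifs. Over all 35116 windows of the table, 10.9% held the ARE core, 4.20% the AP-1 motif and 1.65% the cAMP response element. For the windows of these genes the counts were 2, 2 and 1 of 13. A match in letters is a description and not a binding site, and nothing is drawn from windows without one.

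All 10 genes had higher means in YW3-56 than in DMSO. In 8 of them every YW3-56 array lay above every DMSO array, and in KEAP1 and NQO1 the groups overlapped. NMRAL2P, picked for its large rise, is in both counts, so its part in them was fixed in advance. Of all genes tested, 36.9% had groups that did not overlap, in either direction. Among the 9 genes that were tested, limma called 7 higher and 0 lower in YW3-56 at an adjusted p under 0.05. The count of falls was also 0 at an unadjusted p under 0.05, a threshold at which the share of all genes was not counted. Over all genes, 21.4% were called, 9.84% higher and 11.5% lower. MAFG, HMOX1, SRXN1 and OSGIN1, 4 of the 9, were called with at least a 2-fold rise, as were 0.896% of all genes. The regulators gave 4 of the 7 rises and the targets gave 3.

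**Figure D1:**
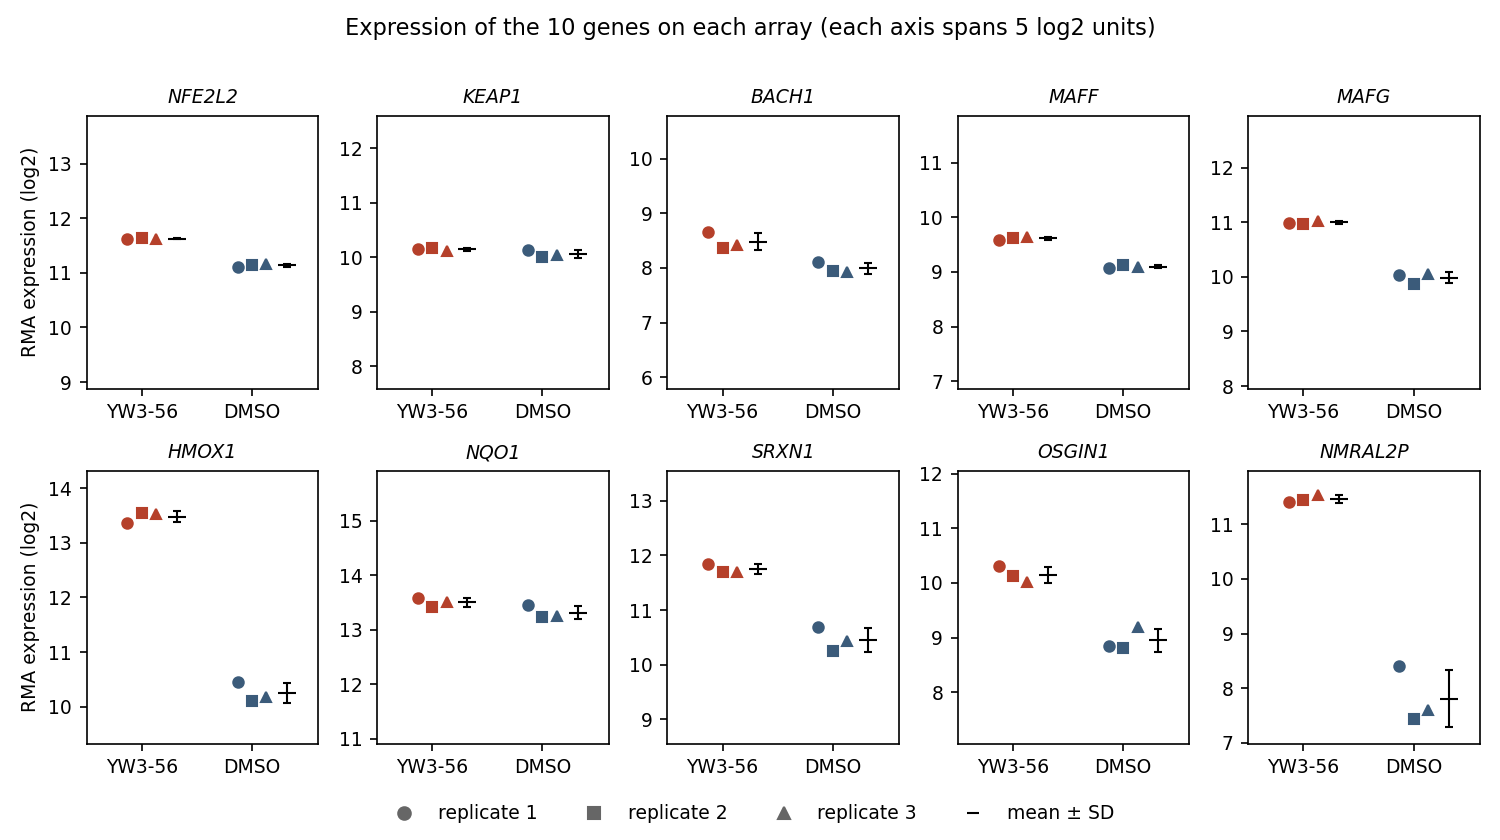
RMA expression (log2) of the 10 genes on each array, YW3-56 left and DMSO right, with replicates as circles, squares and triangles and the mean ± SD beside them (n = 3 per group). HMOX1 and NMRAL2P show gaps of 2.91 and 3.01 between the groups, while KEAP1 and NQO1 overlap.

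Among the regulators, NFE2L2 itself had 11.62, 11.64 and 11.62 on the YW3-56 arrays, against 11.11, 11.14 and 11.17 on the DMSO arrays. The replicates of each group lay within 0.051 of each other, and the groups were 0.45 apart. NFE2L2 rose by 0.49 ± 0.07 (SE, n = 3 per group, limma adjusted p = 0.0017), which is 1.40-fold.

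KEAP1, the adaptor that presents NRF2 to its ligase, had 10.14, 10.17 and 10.12 in YW3-56, against 10.13, 10.01 and 10.03 in DMSO. DMSO replicate 1 lay among the treated values. The difference of 0.09 ± 0.07 did not pass (limma adjusted p = 0.49).

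BACH1, the repressor, had 8.66, 8.37 and 8.41 in YW3-56, against 8.11, 7.93 and 7.92 in DMSO. In both groups replicate 1 was the highest array, and the groups did not overlap. BACH1 rose by 0.49 ± 0.10, or 1.41-fold (limma adjusted p = 0.0098). This is close in size to the rise of NFE2L2, and the difference between them was not tested. The call of BACH1 was lost in a test with no variance shared between genes (adjusted p = 0.0603).

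The small MAF genes encode proteins with a DNA-binding domain and no activation domain, partners of both NRF2 and BACH1. MAFF had 9.59, 9.62 and 9.65 in YW3-56, against 9.07, 9.13 and 9.09 in DMSO. It was the member with the most similar spread in both groups, at an SD of 0.03 in each, and rose by 0.52 ± 0.07 (limma adjusted p = 0.0014).

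MAFG had 10.99, 10.97 and 11.03 in YW3-56, against 10.04, 9.87 and 10.05 in DMSO. The groups were 0.92 apart, the widest gap of any regulator here. MAFG rose by 1.01 ± 0.08, or 2.02-fold (limma adjusted p = 0.00018). MAFK, the remaining small MAF gene, had no probe set under its symbol alone and was not analysed here.

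The 3 probe sets of MAFG moved the same way by different amounts. Probe set 8019796 gave the value above, 8019308 gave 0.86 ± 0.09 and 8019798 gave 0.49 ± 0.12. On the dimmest, 8019798, the arrays read 9.27, 9.16 and 9.36 in YW3-56, against 8.61, 8.71 and 9.02 in DMSO. The groups did not overlap on any of the 3, and adjusted p over all probe sets with a single symbol ran from 0.00019 to 0.019 (limma).

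**Figure D2:**
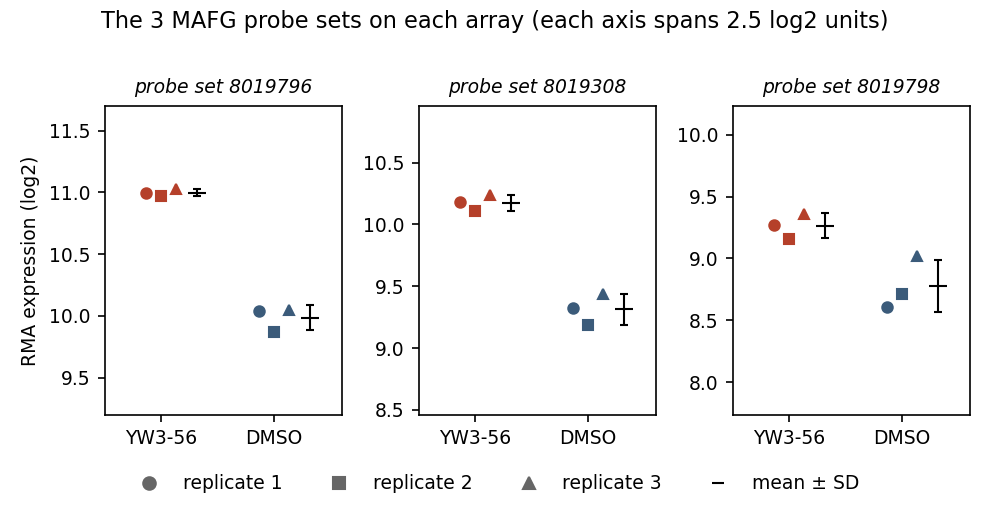
RMA expression (log2) on the 3 MAFG probe sets for each array, YW3-56 left and DMSO right, with the mean ± SD (n = 3 per group). All 3 are higher in YW3-56, by 1.01, 0.86 and 0.49 from left to right.

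Among the targets, HMOX1 encodes haem oxygenase 1, the inducible enzyme that opens haem into biliverdin, iron and carbon monoxide. It had 13.36, 13.54 and 13.52 in YW3-56, against 10.45, 10.10 and 10.19 in DMSO. The spread within each group was small beside the gap of 2.91 between them. HMOX1 rose by 3.23 ± 0.11, or 9.38-fold (limma adjusted p = 5.5e-06), the rise ranked 4 among all genes.

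SRXN1, sulfiredoxin, returns overoxidised peroxiredoxins to use. It had 11.85, 11.69 and 11.70 in YW3-56, against 10.68, 10.26 and 10.43 in DMSO. DMSO replicate 1 was again the highest control, still 1.00 below the lowest treated array. SRXN1 rose by 1.29 ± 0.11 (limma adjusted p = 0.00032), or 2.45-fold.

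OSGIN1, an oxidative stress-induced growth inhibitor, had 10.31, 10.13 and 10.01 in YW3-56, against 8.84, 8.80 and 9.19 in DMSO. Here DMSO replicate 3 was the highest control, and the groups were 0.82 apart. OSGIN1 rose by 1.20 ± 0.12, or 2.30-fold (limma adjusted p = 0.00055).

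NQO1, a quinone reductase widely used as a marker of NRF2 activity, was bright in both groups. It had 13.59, 13.42 and 13.51 in YW3-56, against 13.46, 13.24 and 13.25 in DMSO. DMSO replicate 1 exceeded YW3-56 replicate 2, so the groups overlapped. The difference of 0.19 ± 0.09 did not pass (limma adjusted p = 0.19). Without DMSO replicate 1 it was 0.26 and passed narrowly (adjusted p = 0.0471).

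NMRAL2P is a transcribed pseudogene on chromosome 3 that has been described as an NRF2-regulated transcript in colon cancer cells. It had 11.41, 11.45 and 11.54 in YW3-56, against 8.40, 7.43 and 7.60 in DMSO. The treated arrays agreed closely, with an SD of 0.07, while the DMSO arrays had an SD of 0.52. The difference of 3.66 ± 0.22 was the rise ranked 2 of all genes, below HSPA6 (4.96) and above DDIT3 (3.36). Without DMSO replicate 1 it was 3.95.

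**Figure D3:**
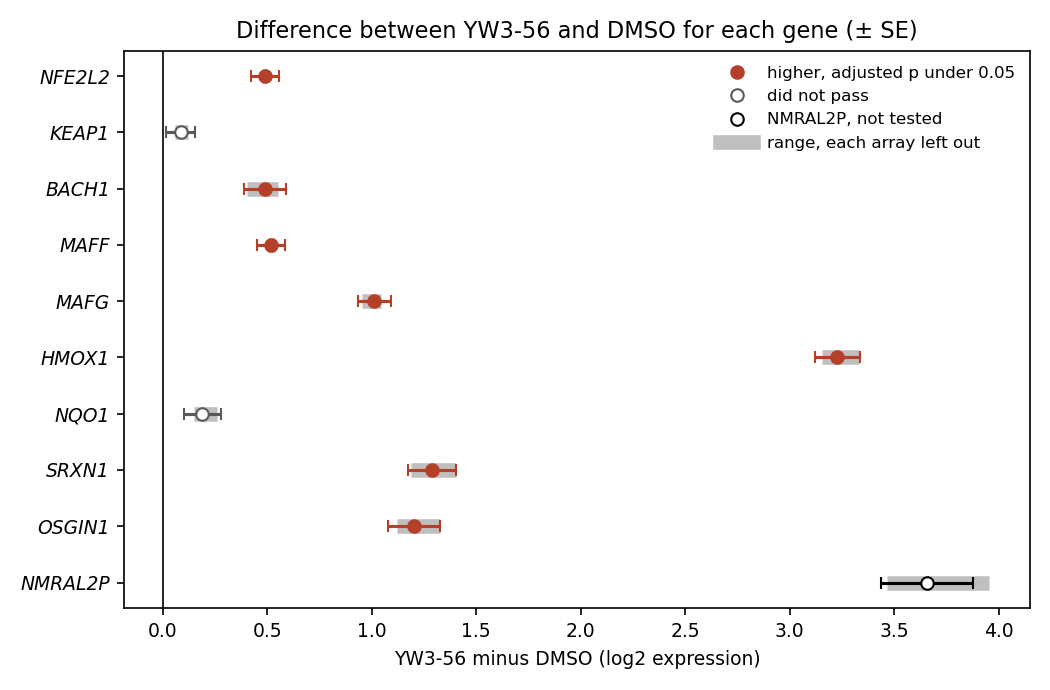
Difference between YW3-56 and DMSO (log2 expression, point ± SE, n = 3 arrays per group) for each of the 10 genes, with grey bars for the range over fits that each leave out 1 array. Filled points passed the test, and the open points are KEAP1, NQO1 and the untested NMRAL2P.

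DMSO replicate 1 was the highest control for 6 of the 10 genes, namely KEAP1, BACH1, HMOX1, NQO1, SRXN1 and NMRAL2P. The SD was larger in DMSO than in YW3-56 for 9 of the 10, BACH1 being the exception. These counts were not made over all genes, so they cannot be taken as particular to this set. In a fit of array weights over all genes, DMSO replicate 1 had the lowest weight (0.325). With DMSO replicate 1 left out, HMOX1 rose by 3.33, SRXN1 by 1.40 and BACH1 by 0.55, each still passing the test.

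HMOX1 and NMRAL2P were set against the other genes by the Pearson r of log2 values over the 6 arrays. Symbols beginning LOC, MIR or SNOR were passed over in the ranks and counts below. Such an r is high for any gene that separates the YW3-56 arrays cleanly from the DMSO arrays in the same direction. The genes most like HMOX1 were KDM3A, a histone demethylase, KLHL24, an adaptor of CUL3 ligases, SAT1, which acetylates polyamines, ZFAND2A, an arsenite-inducible protein, and GCLC, the catalytic subunit for glutathione synthesis, with r from 0.9989 to 0.9996. For NMRAL2P they were LRIF1, VAMP1, FAM193A, SQSTM1 and PLXDC2, with r from 0.9980 to 0.9997. There were 137 genes with r over 0.99 to HMOX1 and 128 to NMRAL2P.

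The relatives of NRF2 and BACH1 went different ways. NFE2L1, a CNC factor anchored in the endoplasmic reticulum and known for control of proteasome genes, had 11.41, 11.39 and 11.47 in YW3-56, against 10.94, 10.83 and 10.90 in DMSO. It rose by 0.53 ± 0.07 (limma adjusted p = 0.0016). NFE2L3, another CNC factor, had 10.05, 9.96 and 9.81 in YW3-56, against 10.62, 10.19 and 10.34 in DMSO. It fell by 0.44 ± 0.12 (limma adjusted p = 0.034), a call lost when any 1 YW3-56 array or DMSO replicate 3 was left out (adjusted p from 0.0518 to 0.136). Centring of each array on its median (0.0691) and a test with no shared variance (0.142) also ended it. NFE2 (-0.04) and BACH2 (-0.09) did not pass.

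Of 12 other measured genes that control NRF2 degradation, 2 rose, 0 fell and 10 did not pass in limma. The 2 rises are 16.7% of these genes, against 9.84% of all genes called higher, and 11.5% of all genes were called lower. Genes at an unadjusted p under 0.05 in the list of 13, which includes KEAP1, were 3 higher and 3 lower. Without the share of all genes at that threshold, which was not counted, nothing is drawn from these numbers. SQSTM1, the autophagy receptor p62 that binds KEAP1, had 12.41, 12.41 and 12.48 in YW3-56, against 11.69, 11.39 and 11.39 in DMSO, and rose by 0.94 ± 0.10 (limma adjusted p = 0.00054). SYVN1, a ligase of the endoplasmic reticulum reported to act on NRF2, rose by 0.86 ± 0.08 (0.00031). CUL3, the scaffold of the KEAP1 ligase, differed by -0.20 ± 0.07 and GSK3B, a kinase upstream of another NRF2 ligase, by 0.33 ± 0.13, and neither passed (0.086 and 0.11). The median difference of the 12 was -0.02, against -0.05 over all genes.

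A wider list of NRF2 targets, drawn up with earlier results known, was read from the same fit. Besides the 4 targets above it had 35 measured genes, of which 13 rose, 0 fell and 22 did not pass in limma. The 13 rises are 37.1% of these genes, against 9.84% of all genes called higher, and 11.5% of all genes were called lower. With replicate number as a block, the transporters ABCC4 (-0.38, adjusted p = 0.00927) and ABCC1 (-0.30, 0.022) were called lower, so the count of 0 falls did not hold in that fit. In the whole list of 39, 1 gene was lower at an unadjusted p under 0.05 and 20 were higher. The median difference of the 35 was 0.22, against -0.05 over all genes.

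The targets with the largest rises were ABHD4, a lipid hydrolase, at 1.85 ± 0.14, GCLC at 1.32 ± 0.08, TRIM16, a ubiquitin ligase, at 1.32 ± 0.13 and GCLM, the modifier subunit for glutathione synthesis, at 1.05 ± 0.07. GCLC had 10.87, 11.01 and 11.02 in YW3-56, against 9.75, 9.60 and 9.58 in DMSO. ABHD4 had 11.20, 10.82 and 10.90 in YW3-56, against 9.38, 8.96 and 9.03 in DMSO. Adjusted p of these 4 ran from 9.2e-05 to 0.00045 (limma), and none of their groups overlapped. The other 9 that passed ranged from 0.32 for PGD to 0.92 for SLC7A11, the cystine transporter. PGD lost its call without DMSO replicate 2 (adjusted p = 0.0644) or YW3-56 replicate 3 (0.0645). CBR1 and EPHX1 lost theirs when any 1 array other than DMSO replicate 1 was left out, with adjusted p from 0.102 to 0.167 for CBR1 and from 0.0656 to 0.153 for EPHX1. Both were also lost with no shared variance (0.142 and 0.198), and CBR1 on centred arrays (0.0723).

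The aldo-keto reductases AKR1C1 (-0.02), AKR1C2 (0.00), AKR1C3 (0.37) and AKR1B10 (0.22), often listed as NRF2 targets in human cells, did not pass. These genes were picked after their values were seen. AKR1C2, AKR1C3 and AKR1B10 lay below the 25 percentile of mean expression. Their means were 6.58, 6.98 and 5.96 in YW3-56, against 6.58, 6.61 and 5.74 in DMSO. At such low levels a missing call says little. The groups of AKR1C3 did not overlap. It was called higher without YW3-56 replicate 3 (adjusted p = 0.0483) or DMSO replicate 1 (0.0454). AKR1C genes are close copies of each other, and probes that they share cannot be separated here.

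**Figure D4:**
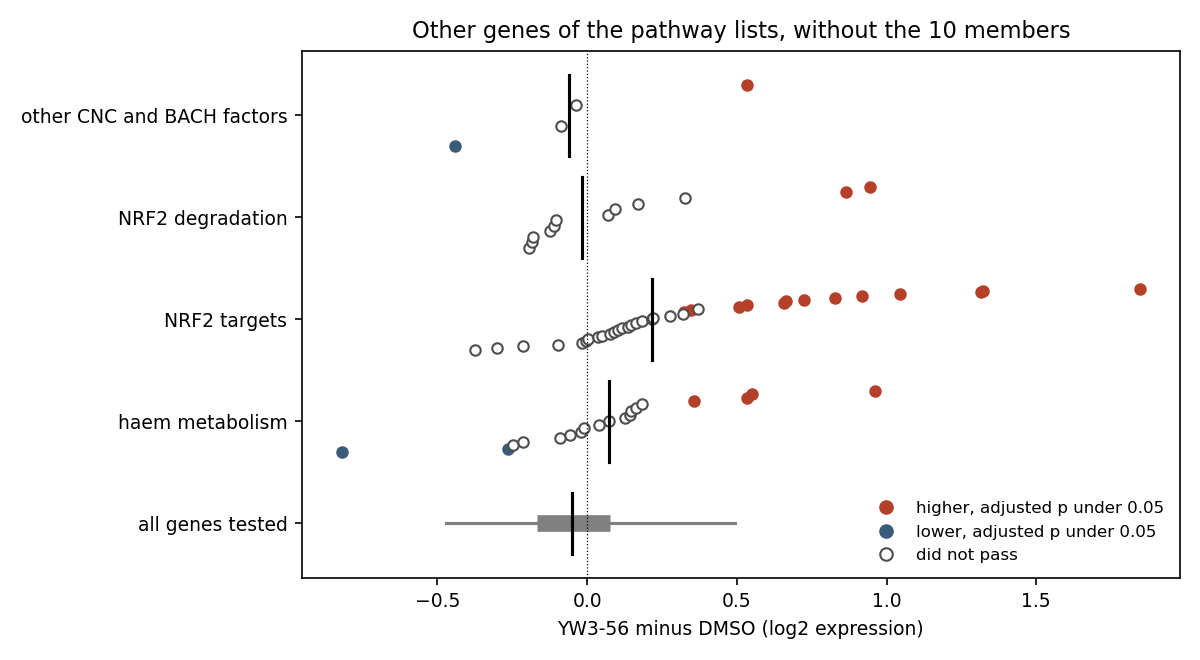
Difference between YW3-56 and DMSO (log2 expression) for the other genes of the 4 lists, 1 point per gene, with a line at each median and, for all 18417 genes, a bar for the quartiles and a line from the 5th to the 95th percentile. The NRF2 targets extend to 1.85 on the right with no call on the left, and the haem list holds calls on both sides.

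The haem pathway held 19 measured genes besides HMOX1. In limma 4 of them rose, 2 fell and 13 did not pass, and their median difference was 0.07. BLVRB, 1 of the 4 rises, is also on the list of NRF2 targets and was counted in both. The 4 rises are 21.1% of these genes, against 9.84% of all genes called higher. The 2 falls are 10.5% of these genes, near the 11.5% of all genes called lower. HMOX2, the constitutive haem oxygenase, had 9.61, 9.54 and 9.61 in YW3-56, against 10.50, 10.44 and 10.27 in DMSO. It fell by 0.82 ± 0.08 (limma adjusted p = 0.00051), 1.76-fold lower, while HMOX1 rose on the same arrays.

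Upstream of the oxygenases, ABCB6, a porphyrin transporter, had 9.10, 8.77 and 8.82 in YW3-56, against 8.26, 7.74 and 7.80 in DMSO and rose by 0.96 ± 0.15 (limma adjusted p = 0.0032). FECH, which inserts iron to complete haem, rose by 0.55 ± 0.09 (0.0045), and ALAD, an early enzyme of synthesis, by 0.36 ± 0.07 (0.0073). UROD, a middle enzyme, fell by 0.26 ± 0.07 (0.038), a call lost when any 1 array other than DMSO replicate 1 was left out (adjusted p from 0.0709 to 0.137) and on centred arrays (0.108). ALAD and UROD were named after their values were seen, to complete the counts. ALAS1, the first and regulated step, differed by -0.06 ± 0.09 and did not pass.

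Downstream, the biliverdin reductases turn biliverdin into bilirubin. BLVRB had 10.20, 9.95 and 9.92 in YW3-56, against 9.63, 9.51 and 9.31 in DMSO, and rose by 0.53 ± 0.11 (limma adjusted p = 0.011). BLVRA had 7.94, 7.67 and 7.78 in YW3-56, against 8.20, 7.83 and 8.00 in DMSO, with overlapping groups, and its difference of -0.21 ± 0.11 did not pass (0.25). Whether the 2 reductases changed by different amounts was not tested. FTL, the ferritin light chain that stores iron, had 13.90, 13.84 and 13.88 in YW3-56, against 13.62, 13.27 and 13.20 in DMSO. It rose by 0.51 ± 0.11 (0.014), a call lost without DMSO replicate 2 (0.0608) or YW3-56 replicate 3 (0.0573). The calls of ABCB6 (0.0511), BLVRB (0.0737) and FTL (0.0835) were also lost with no variance shared between genes.

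**Figure D5:**
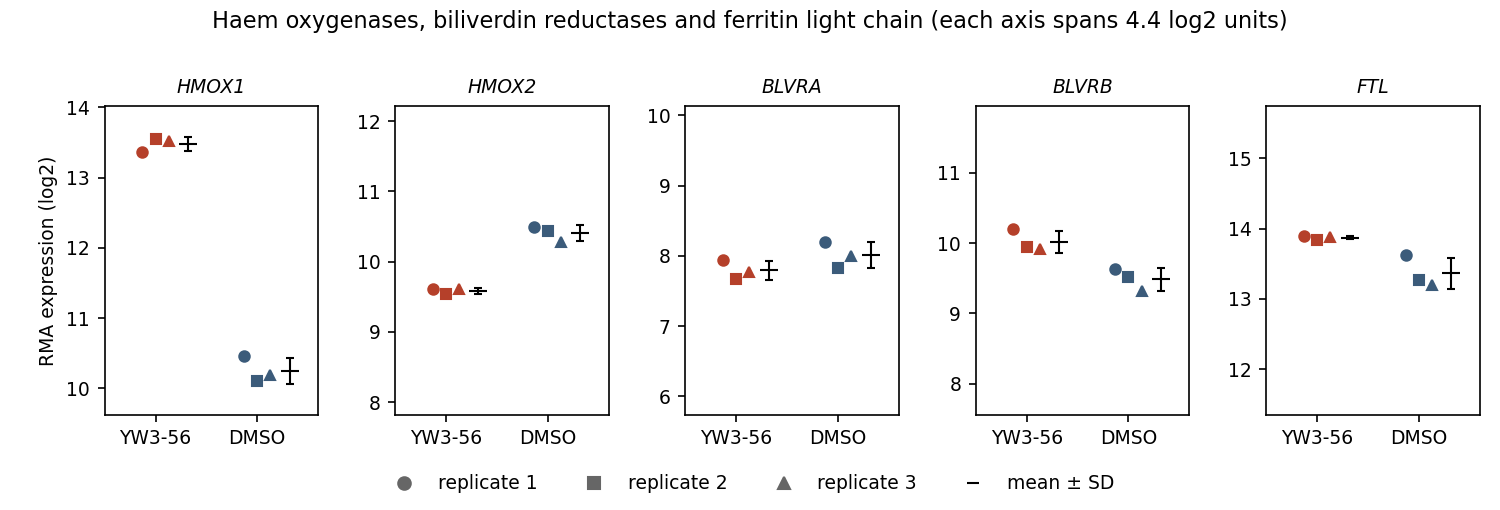
RMA expression (log2) of HMOX1, HMOX2, BLVRA, BLVRB and FTL on each array, YW3-56 left and DMSO right, with the mean ± SD (n = 3 per group). HMOX1 lies higher in YW3-56 and HMOX2 lower, with no overlap in either.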

How the data were processed

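Values were deposited on the log2 scale for 33297 probe sets on 6 arrays and were made by the authors with RMA and the affy package, per the submitters' processing notes. RMA equalises array distributions at the probe level, so a shift of all transcripts would not be seen. The medians of the deposited values still differed, from 7.548 in DMSO replicate 1 to 7.74 in DMSO replicate 3. In YW3-56 they ran from 7.581 to 7.653. Arrays have no read depth, and 3 per group limit the precision. The platform annotation gave a single symbol to 19460 probe sets, several to 1754 and none to 12083. The brightest probe set stood for each of 18417 genes.

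YW3-56 was compared with DMSO in limma 3.58.1 (R 4.3.3) over all genes, with no filter and no block, two-sided, with Benjamini-Hochberg adjustment and a threshold of 0.05. The code was tested on simulated data. Deviations from group means correlated at 0.539, 0.37 and 0.102 for same-numbered replicates, so the labels' numbers were taken as a pairing and a blocked fit was run. YW3-56 replicate 2 correlated better with DMSO replicate 3 (0.416).

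The 10 genes, the lists and the naming rule were chosen with earlier results of these data known. The rule took all 10, the 4 other genes of each list with the largest difference (called genes first), every called regulator or degradation gene, and the 5 genes most like HMOX1 and NMRAL2P. Genes named beyond it, chosen after their values were seen, were ALAD, UROD, ALAS1, BLVRA, FTL, SLC7A11, PGD, CBR1, EPHX1, ABCC1, ABCC4, RBX1, GSK3A and the aldo-keto reductases. HSPA6 and DDIT3, also beyond it, were named for their ranks next to NMRAL2P. Of 10 listed regulators 9 were measured, of 13 degradation genes 13, of 44 targets 39 and of 23 haem genes 20.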

Additional observations from a re-analysis of the deposited data

How the results depend on the processing

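Alternatives were a replicate block, a second quantile normalization, centred arrays, removal of genes below the 25 percentile of mean expression, averaging of the probe sets of each gene, a trended and robust prior, no shared variance, array weights and each array left out. None turned the direction of any of the 10 genes. HMOX1 ranged from 3.16 to 3.36, NMRAL2P from 3.47 to 3.96 and MAFG from 0.79, on the mean of its probe sets, to 1.10. The call of BACH1 was lost with no shared variance. NQO1 (0.19) passed with a trended and robust prior (adjusted p = 0.0463), with array weights (0.24, 0.0202) and without DMSO replicate 1. Between 6 and 8 of the 9 tested genes were called higher and 0 lower in every alternative run. Over all genes, those runs called 1158 (without YW3-56 replicate 3) to 2749 (array weights) higher, against 1812 in the reported fit.

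With the replicate block, 7 of the 9 were called higher. In the whole lists, which include members, 19 of 39 NRF2 targets were called higher against 16, and 5 of 20 haem genes against 5. Over all genes the block called 2115 higher, against 1812 in the reported fit. No call of the 10 genes changed, nor of another list gene given with its own adjusted p, but AKR1C3 (0.37, 0.013) was called higher, and ABCC4 and ABCC1 lower. ABCC4 was also called lower with a trended prior (0.0318), with array weights (0.0141) and without YW3-56 replicate 1 (0.0394), and ABCC1 with array weights (0.0322). Over all genes 3933 were called, 4776 with the block, 6380 with array weights and 2364 to 4689 with 1 array left out, the lowest without YW3-56 replicate 3. The reported fit called 1812 genes higher and 2121 lower. On centred arrays it was 1691 higher and 1432 lower, so the balance of directions reversed. Array weights gave DMSO replicate 2 a weight of 3.49 and DMSO replicate 1 a weight of 0.325. Of the degradation genes, of which 0 fell in the reported fit, CUL3 was called lower with array weights (adjusted p = 0.0375), a trended prior (0.0177) and no shared variance (0.0341), as was RBX1 (0.0171, 0.0258 and 0.0232), and GSK3A with array weights (0.0273) and a trended prior (0.0168). GSK3B was called higher with array weights (0.0186) and without DMSO replicate 1 (0.0164). Of the 20 haem genes including HMOX1, 5 were called higher, but 3 with no shared variance and 7 with array weights. Over all genes, 1299 were called higher with no shared variance and 2749 with array weights, against 1812. With 1 array left out, the haem genes called higher numbered 5 in each fit, and those of the 39 targets 12 to 19. Over all genes, the fits with 1 array left out called 1158 to 2084 higher.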
